A study of Mus musculus with 2 samples.

Results

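The genes described here are the antiviral effectors induced by type I interferon. They were chosen as a list of 42 symbols, and 40 of these matched a gene symbol among the 32285 genes counted in this series. Mx1 and Mx2 had no matching symbol and are not analysed here. None of its genes was used to define a cell type.

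Single-cell RNA sequencing was made on CD45-positive cells, that is leukocytes, sorted from tumours of B16F10, a mouse melanoma line. The control library came from wild-type samples given bone-marrow-derived macrophages (BMDMs) without treatment, and the IL4 library from wild-type samples given BMDMs treated with IL-4, the cytokine of alternative macrophage activation. There was 1 library per group, and the treatment protocol text names IL-4-treated cells for both, so the grouping rests on the treatment given among the sample characteristics. Strain, age, sex and the number of animals behind a library are not given in the sources used here, and transferred macrophages cannot be told apart from those of the host.

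Type I interferons, among them interferon beta, signal through the receptor Ifnar1 and Ifnar2 to transcription factors in the nucleus. These bind the interferon-stimulated response element (ISRE) in the promoters of a large set of genes, many of whose products block viral replication at the level of RNA, nucleotides, translation or budding. In tumours the same genes are read as a trace of interferon made by macrophages and dendritic cells (DCs), whether or not a virus is present.

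The element can be read in the promoters of the members. In windows of 300 bases around RefSeq gene starts (GRCm38.p6, the same assembly as mm10), the ISRE core, GAAA followed by any 2 bases and another GAAA, searched on both strands, were present for 17 of the 31 members that have a window (54.8%), against 1079 of 27025 genes (3.99%). The letters TTCNNNGAA of the interferon gamma-activated site, a palindromic motif, were present for 5 of the 31 members (16.1%), against 9.55% of genes. The windows of Isg15, Ifit1, Ifit3, Rsad2, Bst2, Ifi205 and Ifi211 are shown because the results below turn on these genes or on their likeness. Capitals mark the ISRE core, in either orientation, and each line runs 5′ to 3′ on the strand of the gene.
Isg15, chr4:156200863-156200908, minus strand: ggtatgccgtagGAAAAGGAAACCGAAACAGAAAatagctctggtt
Ifit1, chr19:34640773-34640825, plus strand: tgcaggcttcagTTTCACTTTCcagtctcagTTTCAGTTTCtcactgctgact
Ifit3, chr19:34583361-34583428, plus strand: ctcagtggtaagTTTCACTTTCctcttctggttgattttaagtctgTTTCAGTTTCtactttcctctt
Ifit3b, chr19:34607757-34607824, plus strand: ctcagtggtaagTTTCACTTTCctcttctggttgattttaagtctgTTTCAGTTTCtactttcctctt
Rsad2, chr12:26456551-26456584, minus strand: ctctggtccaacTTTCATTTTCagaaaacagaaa
Bst2, chr8:71537575-71537614, minus strand: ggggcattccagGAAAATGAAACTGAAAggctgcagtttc
Ifi205, chr1:174031868-174031901, minus strand: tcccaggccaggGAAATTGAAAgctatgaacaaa
Ifi211, chr1:173913062-173913095, minus strand: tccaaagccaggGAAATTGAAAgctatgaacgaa
Isg15 held 3 overlapping cores that began 78 bases before its start, and Ifit1 held 2 apart from each other. Ifit3 and Ifit3b are neighbours on chromosome 19 with the same letters in this window. A match is a string of letters and not a measured binding site. The other 14 members with a window, Cmpk2, Dtx3l, Herc6, Ifi209, Ifi44, Ifit2, Isg20, Oasl1, Oasl2, Phf11d, Samd9l, Slfn1, Slfn4 and Xaf1, had no such string in it, and in Ddx58, Eif2ak2 and Ifih1 it lay past the start.

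Sequencing gave 8994 control barcodes (95499107 UMIs in all, median 9156.5 each) and 13873 IL4 barcodes (133151428 UMIs, median 8213). Marker genes gated 61.0% of kept control and 58.1% of kept IL4 barcodes into 11 leukocyte types. The types are named by those same markers, so a raised marker is no separate test of a name. Another 4.64% and 6.21% carried markers of more than 1 lineage and were set apart, and the rest were ungated. The libraries shared 23 barcode sequences. Of the barcodes with either Xist or Y-linked transcripts but not both, 36.8% of control and 10.9% of IL4 barcodes were of the Y-linked kind, so the libraries differ in the sex of the cells. With 1 library per group no test was possible: each interval covers counting error only, at 95%, and every difference is between these libraries. Levels are UMIs per 1000000 UMIs of the type (CPM). A member is called higher or lower at 1.5-fold or more on the scale of CPM plus 1, if it had at least 20 UMIs over both libraries.

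Most members were read in every type, and few belonged to one. A level at least 2-fold above the next type in each library was found for 4 of 40 members: Bst2, Ifi205, Slfn4 and Isg20. The type with the highest level was the same in both libraries for 28 of 40 members, and it was the macrophage-like type for 10 members in either library. These ranks take no account of counting error.

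Bst2 encodes tetherin, which holds budding virions on the cell surface, and is known in mice as a surface marker of plasmacytoid DCs. Its level in plasmacytoid DC-like cells was 2513 CPM in the control and 2509 CPM in the IL4 library. The next type, macrophage-like cells, stood at 477 and 565 CPM. The excess over that type was 5.27-fold and 4.44-fold, and the lowest level lay in NK-like cells, at 92.9 and 122 CPM. Bst2 thus stood apart in this type in both libraries and was higher at 1.5-fold in 0 of 11 types.

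Ifi205, a member of the PYHIN family of nucleic acid-binding proteins, was concentrated in type 1 conventional DC-like cells (cDC1-like), which are known for cross-presenting antigen. It stood there at 421 CPM in the control and 405 CPM in the IL4 library. The next type was type 2 conventional DC-like (cDC2-like) at 109 CPM in the control and macrophage-like at 141 CPM in the IL4 library. Ifi205 therefore showed 2 separate patterns, a level in cDC1-like cells that was alike in the libraries and a level in macrophage-like cells that was not. Of windows of 90 bases in the last 500 bases of its transcripts, 59.4% also occur in Ifi211 or Mndal, so reads of these genes can be confused. The sources used here do not say how shared reads were counted. Ifi211 stood at 212 and 229 CPM in cDC1-like cells and at 184 and 239 CPM in classical monocyte-like cells, without a concentration in one type.

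Neutrophil-like cells held the other 2 concentrated members. Slfn4, a Schlafen family gene of myeloid cells, stood there at 372 CPM in the control and 505 CPM in the IL4 library, 3.66-fold and 2.66-fold above classical monocyte-like cells. Isg20, an exonuclease that degrades single-stranded RNA, stood there at 116 and 127 CPM, against 35.3 CPM in cDC2-like cells of the control and 59.3 CPM in B cell-like cells of the IL4 library. Slfn1 also had its highest level in neutrophil-like cells, at 217 and 273 CPM, but under the 2-fold limit. The neutrophil-like type held 348 control and 150 IL4 cells, with 2000213 and 659935 UMIs.

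Ifit1, Ifit2 and Ifit3, whose products bind viral RNA and block its translation, had their highest level in NK-like cells. Ifit1 stood at 396 CPM in control and 428 CPM in IL4 NK-like cells, and at 300.4 and 283 CPM in T cell-like cells. In macrophage-like cells it stood at 65.3 and 106 CPM. Ifit2 stood at 283 and 200.3 CPM in NK-like cells and Ifit3 at 81.7 and 87.9 CPM, the latter next to 87.1 CPM in IL4 macrophage-like cells. The order of these types for Ifit3 in the IL4 library is therefore not resolved. Ifit3b was highest in NK-like cells of the control (35.9 CPM) and in T cell-like cells of the IL4 library (22.3 CPM). Herc6, Ddx58 and Samd9l also had their highest level in NK-like cells in both libraries. For Samd9l in the control, 104 CPM lay next to 94.7 CPM (71.7 to 122.6) in B cell-like cells, an order that is not resolved.

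Migratory DC-like cells, which carry antigen to lymph nodes, had the highest level of Isg15 and, over all barcodes, of Ifih1. Isg15, a ubiquitin-like modifier that is joined to other proteins, stood at 703 CPM in the control and 991 CPM in the IL4 library, above neutrophil-like cells of the control (470 CPM) and macrophage-like cells of the IL4 library (754 CPM). Ifih1, which encodes the double-stranded RNA sensor MDA5, stood at 463 and 383 CPM, the latter next to 367 CPM in macrophage-like cells. In Xist-only barcodes that order turned, with 355 and 356 CPM in the IL4 library, and the control value of 477 CPM lay under 484 CPM in NK-like cells, so the top type of Ifih1 is not resolved. Ifi44 was highest in plasmacytoid DC-like cells, at 19.7 and 52.7 CPM, but from only 10 and 81 UMIs.

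Macrophage-like cells had the highest level of Rsad2, Oasl1, Ifi27l2a, Oas1a, Dhx58, Parp14, Xaf1, Rtp4 and Phf11d in both libraries. Some of these orders are not resolved within counting error. Oasl1 stood at 390 CPM in the control, next to 380 CPM (349 to 412) in NK-like cells. Rtp4 stood at 135 and 183 CPM, next to 130 (115 to 147) and 174 CPM (144 to 209) in neutrophil-like cells. Oas1a of the IL4 library stood at 63.8 CPM (60.6 to 67.1), next to 62.1 CPM in classical monocyte-like cells. Ifi27l2a, a small interferon-induced membrane protein, stood at 1499 CPM in control and 1828 CPM in IL4 macrophage-like cells and supplied 24.3% and 22.0% of all member UMIs there. NK-like cells had its lowest level, at 161 and 173 CPM. Classical monocyte-like cells were the highest for Ifi204 and Slfn5 in both libraries, and T cell-like and NK-like cells were at the low end for Slfn5, Oas2 and Phf11d.

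**Figure D1:**
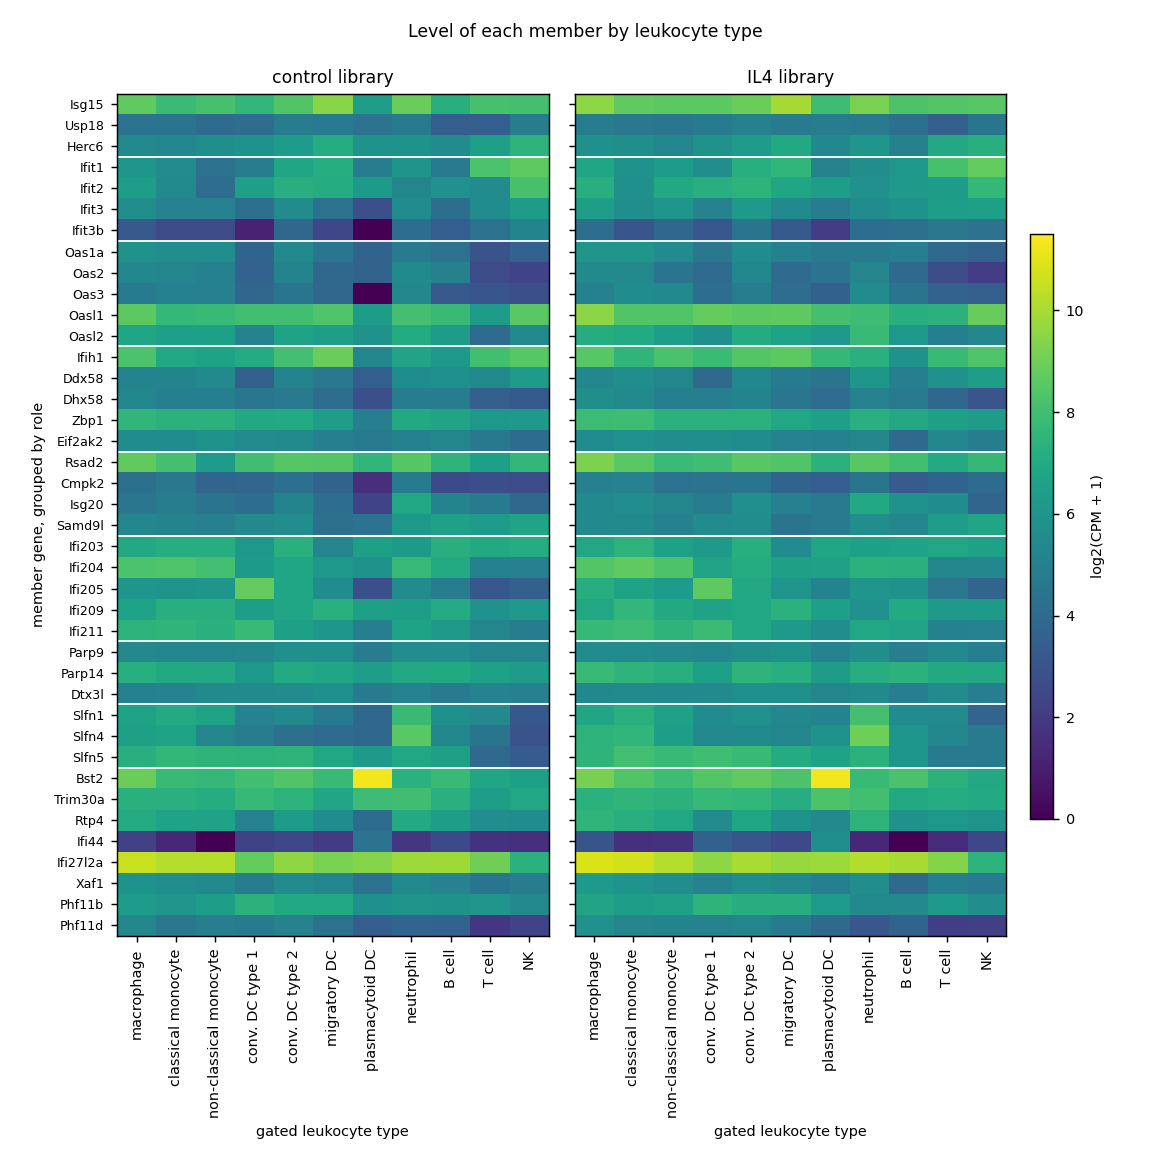
Level of each of 40 members, as log2 of CPM plus 1 (colour), in 11 gated leukocyte types (columns) of the control (left) and IL4 (right) library, with white lines between role groups. Bst2 in plasmacytoid DC-like cells (2513 and 2509 CPM), Ifi205 in cDC1-like cells (421 and 405 CPM) and Slfn4 in neutrophil-like cells (372 and 505 CPM) stand out from their rows.

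In macrophage-like cells (1605 control and 2641 IL4 barcodes), the summed level of the members was 6174 CPM in the control and 8308 CPM in the IL4 library, 1.35-fold higher (interval 1.34 to 1.36). Of 40 members, 11 were higher at 1.5-fold and 0 lower, where 2.77% of all genes tested in that type were higher and 3.77% lower. The median log2 ratio of the members was 0.34, beside -0.09 over all genes. Of the members, 38 lay above 0. The difference was thus broad and mostly small, with a subset beyond 1.5-fold.

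That subset held the whole IFIT family and single genes of other groups. All 4 IFIT genes were higher: Ifit1 from 65.3 to 106 CPM, Ifit2 from 87.1 to 149 CPM, Ifit3 from 49.4 to 87.1 CPM and Ifit3b from 8.31 to 17.0 CPM, with a family median log2 ratio of 0.79. The whole family did not pass in either class when barcodes were divided by Xist and Y-linked transcripts: Ifit1 had a log2 ratio of 0.50 in Xist-only barcodes, and Ifit2, Ifit3 and Ifit3b had 0.20, 0.29 and -0.018 in Y-only barcodes. Isg15 stood at 407 CPM in the control and 754 CPM in the IL4 library, 1.85-fold (1.80 to 1.91). Its partners differed less, with Usp18, the protease that removes Isg15 from proteins, at 19.7 and 27.9 CPM and Herc6, the ligase that attaches it, at 44.1 and 54.3 CPM. Oasl1, which restrains translation of Irf7 mRNA, stood at 390 and 717 CPM, while Oas1a, Oas2, Oas3 and Oasl2 had log2 ratios of 0.12 to 0.37. Oas1a, Oas2 and Oas3 make the oligoadenylates that switch on RNase L. So 1 of 5 genes of the OAS family passed the limit, and it was the one that lacks this enzyme activity.

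Among enzymes of nucleotides and RNA, Isg20 (21.6 and 42.9 CPM) and Cmpk2, a mitochondrial nucleotide kinase (18.2 and 32.6 CPM), were higher. Rsad2, which encodes viperin, a maker of a chain-ending nucleotide, stood at 411 and 591 CPM, 1.44-fold and just under the limit, and Samd9l at 39.1 and 44.0 CPM. None of the 5 genes for sensors and the RNA-activated kinase passed the limit, and Eif2ak2, the gene of that kinase (PKR), stood at 46.2 and 45.4 CPM. Ifi205 had the highest ratio of all members, from 65.3 to 141 CPM, 2.16-fold (2.02 to 2.32). The other 4 PYHIN genes, Ifi211 included, had log2 ratios of -0.04 to 0.30. Slfn4 was higher, from 91.6 to 172 CPM, and Slfn1 (101 and 108 CPM) and Slfn5 (154 and 175 CPM) were not. Ifi44 completed the subset at 3.82 and 7.02 CPM. The PARP complex of Parp9, Parp14 and Dtx3l, which ADP-ribosylates and ubiquitinates proteins, had 0 of 3 members past the limit, as did Bst2, Trim30a, Rtp4, Ifi27l2a, Xaf1, Phf11b and Phf11d.

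In classical monocyte-like cells (1565 and 1971 barcodes) the summed level was 4881 CPM in the control and 6848 CPM in the IL4 library, 1.40-fold (1.39 to 1.42). Within clusters of these cells, described below, the fold ran from 1.05 to 1.71. All 40 members lay above 0, with a median log2 ratio of 0.43 beside -0.04 over all genes. At 1.5-fold 8 were higher and 0 lower, where 1.74% of genes were higher and 3.03% lower. These were Isg15 (227 and 408 CPM), Slfn4 (102 and 190 CPM), Ifi205 (60.8 and 102 CPM), Isg20 (28.6 and 48.4 CPM), Ifih1 (113 and 185 CPM), Oasl1 (202 and 327 CPM), Ifit3 (32.9 and 52.6 CPM) and Phf11d (23.0 and 36.8 CPM). Bst2 lay at the limit, with 221 and 331 CPM and a log2 ratio of 0.58. Of the IFIT genes only Ifit3 passed here, and the other 3 had log2 ratios of 0.34 to 0.40. Whether macrophage-like and monocyte-like cells differ in the IFIT ratio was not tested.

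In cDC1-like cells (303 and 510 barcodes) the members stood at 3792 and 5111 CPM in sum, 1.35-fold (1.33 to 1.37). Here 14 of 40 were higher and 0 lower, where 4.75% of genes were higher and 4.95% lower. All 4 IFIT genes were among them, and so were Isg15 (194 and 393 CPM, 2.02-fold), Usp18, Oas1a, Oasl1 (255 and 434 CPM), Oasl2, Ifih1, Isg20, Slfn4, Ifi44 and Ifi27l2a (439 and 755 CPM). Over all barcodes the cDC1-like type was the only 1 of 11 in which Usp18 or Ifi27l2a passed the limit. Ifi27l2a lay just under it in migratory DC-like cells, at a log2 ratio of 0.57, and at 0.83 in their Xist-only barcodes. In Y-only barcodes of cDC1-like cells neither passed, with -0.63 for Usp18 and 0.48 for Ifi27l2a. Rsad2 stood at 254 and 250.3 CPM and none of the 5 PYHIN genes passed, so genes of the same response took different values in the same cells. Ifit3b had the highest ratio, but from 8 and 77 UMIs. Melanoma genes (6 markers) summed to 6.38 CPM in control and 225 CPM in IL4 cDC1-like cells, and migratory DC markers (8 genes) to 53.2 and 166 CPM. Without the clusters led by cycling or melanoma genes, a choice made after the data were seen, 15 members were higher and 0 lower, where 4.09% of genes were higher and 5.8% lower. The part of the melanoma and migratory DC genes in the other values was not tested.

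The cDC2-like cells (698 and 1015 barcodes) stood at 4776 and 6019 CPM in sum, 1.26-fold (1.25 to 1.27). At 1.5-fold 4 members were higher and 0 lower, where 2.46% of genes were higher and 4.1% lower: Slfn4 (18.0 and 44.8 CPM), Ifit3 (45.3 and 72.9 CPM), Ifit3b (12.9 and 20.2 CPM) and Isg20 (35.3 and 54.0 CPM). In migratory DC-like cells (348 and 653 barcodes) the sums were 4528 and 5531 CPM, 1.22-fold (1.20 to 1.24). There 5 were higher and 0 lower, where 3.45% of genes were higher and 5.82% lower: Slfn4, Ifit3, Isg20, Ifit3b and Slfn1. Ifih1 stood there at 463 and 383 CPM, a log2 ratio of -0.27. Over all barcodes both DC types thus shared Slfn4, Ifit3, Ifit3b and Isg20 past the limit, and their median log2 ratios were 0.30 and 0.32 beside -0.07 and -0.02 over all genes. When barcodes were divided by Xist and Y-linked transcripts, 0 members were higher in both kinds in cDC2-like cells. In migratory DC-like cells only Ifit3 was higher in both. The share of all genes higher in both kinds was not computed.

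In T cell-like cells (188 and 324 barcodes) 12 of 38 counted members were higher and 0 lower, where 4.72% of genes were higher and 6.11% lower. Examples are Oasl1 (82.0 and 168 CPM), Ifit3 (47.9 and 85.5 CPM), Ifit2 (45.6 and 80.6 CPM) and Trim30a (82.4 and 137 CPM). The T cell-like sum stood at 2854 and 3625 CPM, 1.27-fold (1.23 to 1.31). In NK-like cells (177 and 444 barcodes) 7 of 38 were higher and 1 lower, where 6.11% of genes were higher and 7.19% lower. The NK-like sum stood at 3515 and 3717 CPM, 1.06-fold (1.02 to 1.09). The 7 higher members were at most 28.3 CPM there, whereas Ifit1, Oasl1 and Ifih1, each above 300 CPM, had log2 ratios of 0.11, 0.25 and -0.18. Ifit3b was the lower one, at 35.9 and 18.9 CPM. The difference between these types was not tested, and the NK-like sum depends on the kind of barcode: it was 0.865-fold in Xist-only and 1.48-fold in Y-only barcodes, against 1.19-fold and 1.14-fold in T cell-like cells.

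The remaining types hold few cells. Plasmacytoid DC-like cells (40 and 119 barcodes) had 18 of 37 counted members higher and 0 lower, where 12.7% of genes were higher and 9.85% lower. They include Isg15 (86.5 and 238 CPM), Oasl1 (80.6 and 273 CPM), Ifih1 (37.4 and 203 CPM) and Zbp1, a sensor of Z-form nucleic acid (29.5 and 93.0 CPM). Isg20, Ifit3 and Ifi205 rest on 2, 3 and 3 control UMIs there, with intervals of the fold of 1.72 to 56.5, 1.48 to 23.4 and 1.97 to 30.3. Non-classical monocyte-like cells (101 and 131 barcodes) had 9 of 39 higher and 2 lower, where 7.14% of genes were higher and 11.2% lower. Ifit2 had the highest ratio there, at 16.2 and 126 CPM from 18 and 168 UMIs. The non-classical markers (7 genes) summed to 732 and 697 CPM in this type, below classical monocyte markers (9 genes) at 2055 and 1963 CPM. Neutrophil-like cells had 3 higher and 2 lower of 39, where 7.82% of genes were higher and 14.3% lower. B cell-like cells (76 and 42 barcodes) had 7 higher and 6 lower of 34, where 8.93% of genes were higher and 23.6% lower. In neutrophil-like cells the higher members were thus about as frequent as among all genes, and nothing is read from either type at these cell numbers.

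Across the 11 types, Slfn4 was higher in 10 and Ifit3 and Isg20 in 9 each. Slfn4 lay above 0 also in the remaining type, neutrophil-like cells, where its level was highest and its log2 ratio 0.44. The tally includes B cell-like cells, where the fold intervals of Slfn4 (0.907 to 3.20) and Isg20 (0.874 to 3.30) included 1. Slfn4 stood at 38.2 and 65.2 CPM in B cell-like, 21.3 and 39.0 CPM in T cell-like and 6.64 and 27.0 CPM in NK-like cells. Macrophage markers (9 genes) summed there to 1649 and 1749, 381 and 408, and 270 and 291 CPM. The part of transcripts from myeloid cells in the lymphocyte values was not tested. In Y-only barcodes Slfn4 had log2 ratios of 1.06 in macrophage-like and 0.48 in classical monocyte-like cells. In cDC2-like, cDC1-like and migratory DC-like cells they were 0.22, -0.29 and 0.14. The share of all genes higher in as many types was not computed. Parp14, Dtx3l, Herc6, Phf11b and Bst2 were higher or lower in 0 types. Among barcodes that were left ungated, 12 of 40 members were higher and 0 lower, where 2.8% of genes were higher and 1.99% lower. Among the mixed barcodes it was 10 and 0, where 2.37% were higher and 3.03% lower. Over all kept barcodes together it was 7 and 0, where 1.01% were higher and 0.983% lower.

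**Figure D2:**
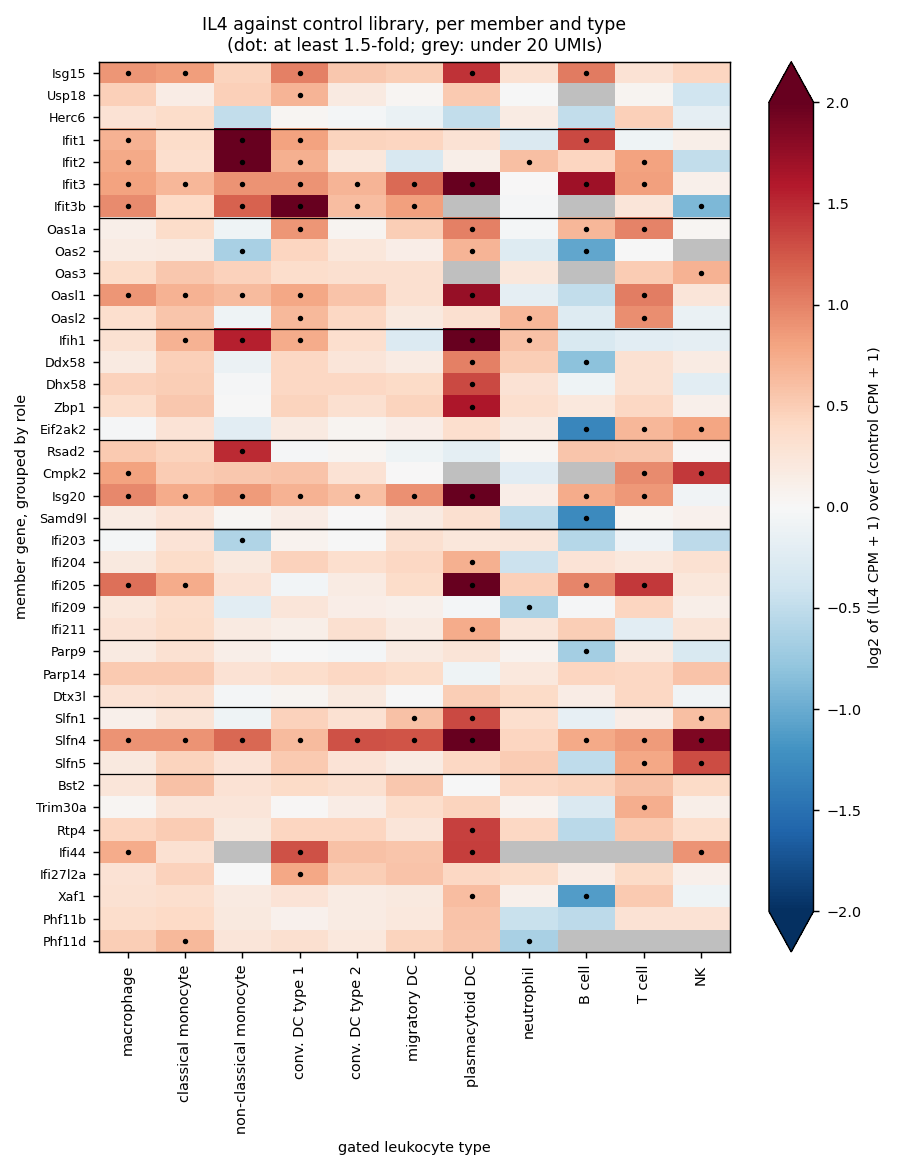
Log2 ratio of IL4 over control (colour, on CPM plus 1) for each member (rows, by role) in each of 11 types (columns), with a dot at 1.5-fold or more and grey for members under 20 UMIs. The Slfn4 row carries a dot in 10 of 11 types and the Ifit3 and Isg20 rows in 9, while the Bst2 and Parp14 rows carry none.

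In macrophage-like and classical monocyte-like cells the higher level was seen across the distribution of cells. After each barcode was thinned to 2000 UMIs, the median macrophage-like cell held 10 member UMIs in the control (1490 cells) and 14 in the IL4 library (2499 cells). The 10th percentile was 3 and 5 and the 90th 26 and 33. In classical monocyte-like cells the medians were 8 and 11, in cDC2-like cells 7 and 10, in cDC1-like cells 6.5 and 9 and in migratory DC-like cells 7 and 8. NK-like cells had a median of 5 in both libraries. The 10% of macrophage-like cells with most member UMIs held 28.9% of them in the control and 25.5% in the other library.

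**Figure D3:**
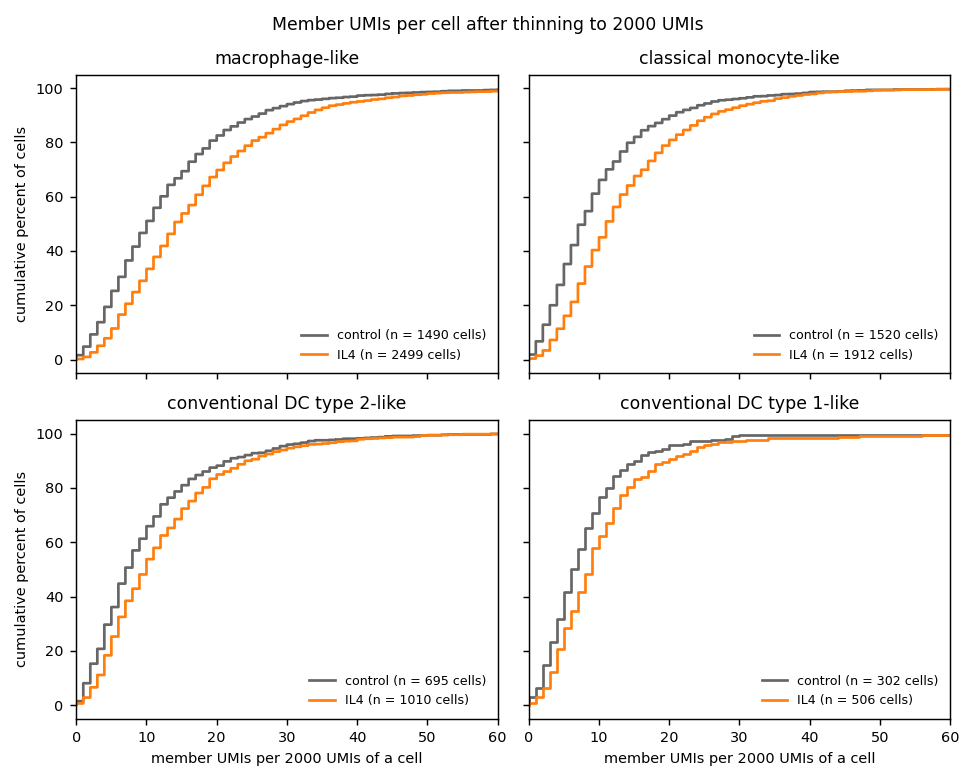
Cumulative percent of cells against member UMIs per 2000 UMIs of a cell, for 4 types, control in grey and IL4 in orange (axis shown to 60). The IL4 curve lies to the right of the control curve over most of its length in macrophage-like cells (medians 10 and 14) and classical monocyte-like cells (8 and 11).

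Members differed in how far they followed each other from cell to cell. Macrophage-like cells were ranked by the thinned UMIs of the other 39 members, and the top 10% were set against the lower 50%. Ifit2 was 21.2-fold higher in the top cells of the IL4 library (373 and 88 UMIs), and Ifit3b, Ifit3, Cmpk2 and Ifit1 were 11.7-fold to 28.9-fold higher. Isg15 was 5.80-fold and Rsad2 7.73-fold higher. At the other end Bst2 was 2.64-fold, Zbp1 2.38-fold and Ifi27l2a 1.37-fold higher. In the control library Ifit2 stood at 91.9-fold from 147 and 8 UMIs, Ifi27l2a at 1.91-fold, and Phf11d and Ifit1 both at 17.7-fold. Ifi27l2a, the member with most UMIs, had the lowest fold of the 40 in either library, and the IFIT genes and Cmpk2 the 5 highest in the IL4 library. These values share the cells and depth of 1 library each and are a description.

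**Figure D4:**
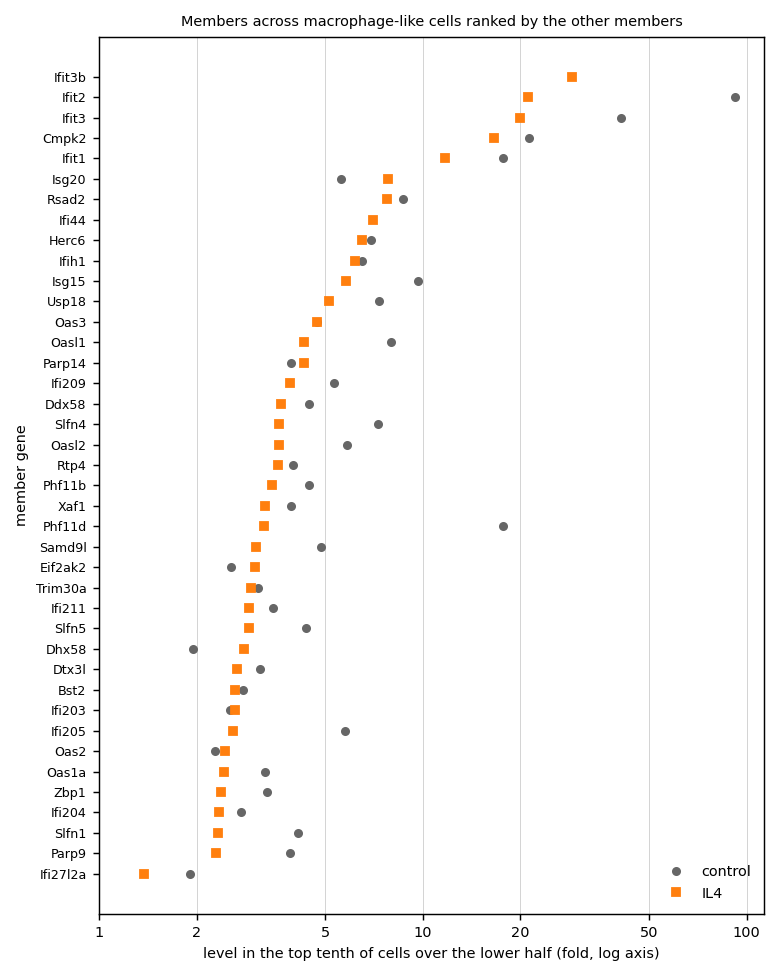
Fold between the top 10% and the lower 50% of macrophage-like cells, ranked by the other members, for each member (log axis), control as grey circles and IL4 as orange squares. A control point is missing where the lower cells held 0 UMIs (Ifit3b, for example), Ifit2 lies at 91.9 and 21.2 and Ifi27l2a at 1.91 and 1.37.

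Macrophage-like and monocyte-like cells hold several states, and clusters made without interferon-inducible genes were used to look inside them. The summed level in macrophage-like cells was lowest in a cluster led by Ccl24, Spp1 and Lpl (3033 CPM in the control, 4031 CPM in the IL4 library) and in one led by Arg1, Egln3 and Nt5e (3198 and 4089 CPM). It was highest in a cluster led by Gm15726, Gm14963 and Gm31522 (8075 and 11332 CPM). These genes carry only numbered names, and the quality of the barcodes in that cluster was not tested. Within each of 6 clusters with at least 50 cells per library the sum was higher in the IL4 library, by 1.20-fold to 1.40-fold. In the one led by Cxcl1, Il1a and Il10 (310 and 1028 cells), 11 of 40 members were higher and 0 lower, where 5.33% of genes were higher and 4.75% lower. In the one led by Ccl8, Cbr2 and Ms4a7 (636 and 754 cells) it was 7 of 40 and 0, where 3.49% were higher and 9.79% lower. The Gm15726 cluster had 18 of 40 higher and 1 lower from 70 and 235 cells (12% and 17.1% of genes). The Ccl24 cluster had 8 of 37 and 1 (6.59% and 10.1%), and the Arg1 cluster 6 of 38 and 3 (7.07% and 8.87%).

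Monocyte-like cells varied more. In those of the Arg1, Egln3 and Nt5e cluster (450 and 277 cells) 26 of 38 members were higher and 0 lower, where 3.87% of genes were higher and 9.32% lower, and the sum stood at 2970 and 5083 CPM, 1.71-fold. In those of the cluster led by Hp, Mgst1 and Chil3 (573 and 1021 cells) 8 of 39 were higher and 0 lower, where 2.97% of genes were higher and 3.35% lower. The sum there stood at 5201 and 6514 CPM, 1.25-fold. In classical monocyte-like cells of the cluster led by Ace, Hpgd and Adgre4 (221 and 132 cells) 0 were higher and 1 lower, where 4.02% of genes were higher and 11.2% lower. The sum stood at 7126 and 7505 CPM, 1.05-fold. Ace and Adgre4 are markers of the non-classical monocyte type, and the cluster as a whole was left unnamed. The non-classical gate itself held 101 and 131 barcodes, so cells with such markers may also lie in the classical gate. In classical monocyte-like cells of the Cxcl1 cluster (115 and 319 cells) 4 of 39 were higher and 1 lower, where 8.23% of genes were higher and 10% lower. The sum stood at 7398 and 8887 CPM, 1.20-fold. The fold over all classical monocyte-like cells, 1.40, thus lay above that of each of these clusters except the Arg1 cluster. That cluster held 450 of 1565 control and 277 of 1971 IL4 cells of the type. The part of the cluster mix in the pooled fold was not tested. The ratio was widest in the monocyte-like cluster with the lowest control level, whereas in macrophage-like cells it was widest, at 1.40-fold, in the cluster with the highest. Whether the clusters differ in the ratio was not tested. The leading cluster of each DC type gave counts near those of the whole type: 4 of 40 in cDC2-like cells (2.16% of genes higher, 3.87% lower), 16 in cDC1-like cells (4.36% and 6.43%) and 5 in migratory DC-like cells (3.77% and 5.93%), with 0 lower in each.

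Because the libraries differ in the sex of their cells, each type was divided into barcodes with Xist only and barcodes with Y-linked transcripts only. In macrophage-like cells 10 of 40 members were higher in the Xist-only and 11 in the Y-only barcodes, with 0 lower in either, where 3.76% and 4.19% of genes were higher and 7.18% and 11.4% lower. The sums were 1.29-fold and 1.36-fold. In classical monocyte-like cells 20 and 11 members were higher and 0 lower, where 2.71% and 4.61% of genes were higher and 4.91% and 12.4% lower, and the sums were 1.502-fold and 1.39-fold. In macrophage-like cells 7 members were higher in both kinds of barcode: Isg15, Isg20, Cmpk2, Oasl1, Ifi44, Ifi205 and Slfn4. In classical monocyte-like cells 10 were: Isg15, Isg20, Ifit3, Ifit3b, Rsad2, Cmpk2, Oasl1, Ifi205, Ifih1 and Phf11d. For these overlaps the share over all genes was not computed. Other members of macrophage-like cells were not alike. Their log2 ratios were 0.76 and 0.20 for Ifit2, 0.80 and 0.29 for Ifit3, 0.12 and 0.61 for Ifih1, and 0.17 and -0.47 for Parp9. The higher summed level in these types was thus present within either kind of barcode.

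The DC types gave different values in the 2 kinds of barcode. In migratory DC-like cells 18 members were higher and 0 lower in the Xist-only barcodes (159 and 440 cells), where 9.58% of genes were higher and 6.02% lower. In the Y-only barcodes (103 and 85 cells) 4 were higher and 10 lower, where 6.09% were higher and 17.4% lower. The median log2 ratio of the members was -0.17 there, beside -0.10 over all genes. In cDC2-like cells 15 were higher and 0 lower in Xist-only barcodes, where 3.46% of genes were higher and 6.13% lower, against 4 higher and 3 lower in Y-only barcodes, where 4.82% were higher and 16.2% lower. In cDC1-like cells it was 20 and 0, where 9.52% of genes were higher and 6.27% lower, against 5 and 3, where 6.69% were higher and 18.2% lower, the latter from 75 and 37 cells. The summed fold was above 1 in either kind of barcode of these DC types. In Xist-only and Y-only barcodes it was 1.34 and 1.06 in migratory DC-like, 1.39 and 1.15 in cDC2-like and 1.48 and 1.22 in cDC1-like cells. In NK-like cells 3 of 37 were higher and 6 lower in Xist-only barcodes (8.62% and 9.14% of genes), against 5 and 1 of 23 in Y-only barcodes (11% and 14.6%). The summed fold there was 0.865 (0.832 to 0.899) and 1.48 (1.37 to 1.60). T cell-like cells had 11 of 37 higher and 0 lower (7.63% and 7.2% of genes) against 5 and 1 of 25 (12.6% and 11.1%). Non-classical monocyte-like cells had 10 of 39 and 1 (10.9% and 11.8%) against 1 of 18 and 0 (13.4% and 20.4%), the latter from 19 and 18 cells. The DC and NK results of the pooled barcodes therefore hold different values by kind of barcode, and the part of the sex difference in them was not tested.

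**Figure D5:**
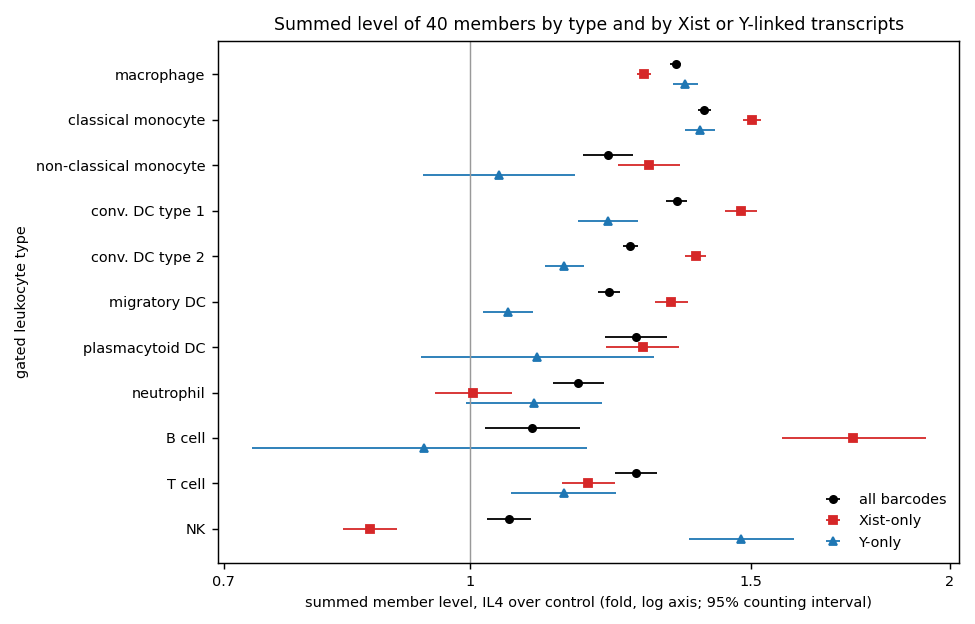
Summed level of the 40 members, IL4 over control (fold, log axis), in 11 types for all barcodes (black), Xist-only (red) and Y-only (blue) barcodes, with 95% counting intervals. In macrophage-like cells the 3 values are 1.35, 1.29 and 1.36, while in NK-like cells the Xist-only value is 0.865 and the Y-only value 1.48.

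The genes that carry the interferon signal were listed beside the effectors. Of 19 genes of type I interferon signalling and induction, 1 was higher and 0 lower in macrophage-like cells (2.77% and 3.77% of all genes, median log2 ratio of the list 0.15), and 2 were higher and 1 lower in classical monocyte-like cells (1.74% and 3.03%). Irf7, the inducible factor that amplifies interferon production, was the higher gene in macrophage-like cells, at 135 and 242 CPM. In classical monocyte-like cells Irf7 stood at 103 and 195 CPM, and Ifnb1, the gene of interferon beta, at 7.95 and 18.9 CPM from 118 and 313 UMIs. Mavs, the adaptor below Ifih1 and Ddx58, was the lower one, at 8.69 and 5.44 CPM. In macrophage-like cells Ifnb1 stood at 48.7 and 67.6 CPM, a level above that of monocyte-like cells in both libraries. The cluster led by Cdk8, Cebpb and Ifnb1 (121 and 181 macrophage-like cells) had 7 of 38 effectors higher and 0 lower, where 12.9% of genes were higher and 11.8% lower. That cluster as a whole was left unnamed, with at most 1 raised marker of any type. Whether it is a cell state or reflects barcode quality was not tested.

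Genes induced mainly by interferon gamma were listed in the same way. In macrophage-like cells 2 of 17 counted genes were higher and 2 lower (2.77% and 3.77% of all genes, median log2 ratio of the list -0.01), and in classical monocyte-like cells 1 was higher and 3 lower (1.74% and 3.03%). Cxcl9, the chemokine most tied to interferon gamma, stood at 228 and 142 CPM in macrophage-like cells, and Cxcl10, which answers to both interferons, at 731 and 1220 CPM. Gbp5, a guanylate-binding protein, stood at 45.1 and 68.5 CPM and Nos2 at 5.88 and 3.02 CPM, so the list held values in both directions. The difference between the lists was not tested. A list of genes that respond to tissue dissociation, immediate early and heat-shock genes together, had 2 of 17 higher and 3 lower in macrophage-like cells (2.77% and 3.77% of all genes). The 3 lower were the heat-shock genes Hspa1a, Hspa1b and Hsp90aa1, with log2 ratios of -0.81, -0.99 and -0.74, and the higher were the immediate early genes Ier2 and Egr1, at 0.81 and 0.63, Egr1 being named after its value was seen. In classical monocyte-like cells 0 were higher and 3 lower (1.74% and 3.03% of all genes). Their part in the effector ratios was not tested.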

How the data were processed

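For 1 control and 1 IL4 library the authors deposited UMI counts, whole numbers for each gene in each barcode. Cell Ranger 7.2.0 and mm10 are named in the submitters' processing notes, and the sources used here name no annotation release. Members and gene lists were chosen with earlier results of these data known. All 40 matched members may be named, and at most 4 genes of each other list, those with the largest ratios.

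Barcodes with at least 500 UMIs, 250 genes and at most 10% mitochondrial counts were kept (8937 control, 13762 IL4). Each was scaled to 10000 UMIs and gated by the mean z-score of 12 marker lists, with at least 3 own markers detected and a lead of 0.2 over the next type; 521 and 768 barcodes lay near that lead. T and NK barcodes with over 20 UMIs per 10000 in 8 myeloid genes, and barcodes with a second lineage score of at least 1, were set apart as mixed. No doublet caller was run, so doublets of like cells remain.

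Counts were summed per type and library and scaled to CPM. Levels carry exact Poisson and folds exact conditional binomial intervals. Calls use 1.5-fold with a pseudocount of 1 CPM and 20 UMIs. Per-cell values were thinned to 2000 UMIs, so that 115 macrophage-like cells of the control and 142 of the IL4 library were too shallow to enter. Leiden clusters (scanpy 1.11.5, leidenalg 0.10.2, resolution 1) left out interferon-inducible genes. Code was tested on simulated data. Alternatives were other minima, pseudocounts, centring, gates, the mitochondrial limit, thinning and the division by Xist and Y-linked transcripts. Promoter windows come from RefSeq; Parp9, Parp14, Dhx58, Ifi27l2a, Ifi204, Oas2, Usp18, Zbp1 and Rtp4 are not in that table.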

Additional observations from a re-analysis of the deposited data

Results flagged for a closer look

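Some members went opposite ways in barcodes with Xist only and barcodes with Y-linked transcripts only, at 1.5-fold or more in each and with counting intervals that leave out a fold of 1. The share of all genes that did so was not computed, so these reversals cannot be called particular to the members. In Y-only barcodes 6.69% of genes were higher and 18.2% lower in cDC1-like cells, and 16.8% and 23.5% in neutrophil-like cells. In cDC1-like cells the log2 ratio of Ifit3 was 2.01 in Xist-only barcodes (21 and 235 UMIs) and -1.22 in Y-only barcodes (56 and 10 UMIs), and that of Ifi204 was 1.27 and -0.66. In cDC2-like cells Cmpk2 had 0.64 and -1.06, the latter from 60 and 11 UMIs. In migratory DC-like cells Xaf1 had 0.66 and -0.68, and Zbp1 0.70 and -0.63. In neutrophil-like cells Oasl1 had -0.97 and 1.03. In NK-like cells Ifih1 had -0.67 (484 and 305 CPM) and 1.52 (150 and 432 CPM), so the Xist-only barcodes of the control and the Y-only barcodes of the IL4 library held the higher levels. These differences between the kinds of barcode were not tested, since each group has 1 library.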

How the results depend on the processing

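No paired analysis was possible because each group has 1 library and no test was run. The count of members higher at 1.5-fold in macrophage-like cells was 10 to 13 under all 11 alternatives, 1 of which (leaving out clusters led by cycling or melanoma genes) was chosen after seeing the data. Over the 5 larger types 45 of 55 alternative counts lay within 1.5 times the count reported, and 10 did not. In classical monocyte-like cells (8) it was 18 with types from Leiden clusters, 14 with a stricter lead and 20 in Xist-only barcodes. In cDC2-like cells (4) it was 2 with a pseudocount of 5 CPM, 7 with ratios centred on all genes and 15 in Xist-only barcodes. In cDC1-like cells (14) it was 9 with Leiden clusters and 5 in Y-only barcodes. In migratory DC-like cells (5) it was 3 with a pseudocount of 5 CPM and 18 in Xist-only barcodes. The cause was not tested. The summed log2 ratio was above 0 in 55 of 55 alternatives (0.08 to 0.59). Of 456 log2 ratios of called members, 8 changed sign: in Y-only barcodes Ifit3b of macrophage-like cells (-0.018), Ifit3 of cDC2-like cells (-0.38), and Isg20 (-0.19), Ifit3 (-1.22), Usp18 (-0.63) and Slfn4 (-0.29) of cDC1-like cells; and in cDC1-like cells Ifit3b with Leiden clusters (-0.60) and Oasl2 after thinning (-0.26). Depth limits the plasmacytoid DC-like, B cell-like and non-classical monocyte-like values, and reads shared with close relatives limit Ifi205, Ifi211, Ifi209 (58.6% of windows shared with Ifi214), Oas1a (42.3% with Oas1g) and Phf11b (22.6%).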
